A study of Mus musculus with 2 samples.

Results

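The genes described here encode the proteasome and the class I antigen processing pathway. They were taken by gene symbol: every Psm gene of the a to g series followed by a digit, with Tap1, Tap2, Tapbp, B2m, H2-K1, H2-D1, Nlrc5 and Erap1. The rule found 58 genes among the 32285 features of the count tables, 50 of them Psm genes and 8 class I genes. Psmc3ip matches the symbol pattern but encodes a recombination protein and no proteasome subunit.

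The proteasome is a barrel of alpha and beta rings that degrades ubiquitinated proteins. Its peptidase sites are carried by Psmb6 (beta1), Psmb7 (beta2) and Psmb5 (beta5) in the constitutive form, and by Psmb9, Psmb10 and Psmb8 at the same sites in the immunoproteasome, which is abundant in lymphocytes and is induced elsewhere by interferon gamma. Peptides are carried into the endoplasmic reticulum by Tap1 and Tap2, trimmed by Erap1, loaded with the help of tapasin (Tapbp) onto H2-K1 or H2-D1 paired with B2m, and shown to CD8 T cells; Nlrc5 is the transactivator of class I genes.

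The data were droplet 5′ single-cell RNA counts of 1 female and 1 male library, from MB49 bladder tumours grown for 14 days in C57BL/6J mice aged 12 to 14 weeks, with 10000 to 20000 cells loaded. No treatment or genotype difference was given, and how many mice each library holds was not given. MB49 is a transplanted mouse cell line, so the tumour cells of both libraries come from 1 line. Per the labels, live CD4+ T cells were sorted. After removal of barcodes with under 500 genes or over 10% mitochondrial UMIs, 3468 female and 3519 male barcodes remained, and 16 barcode sequences occurred in both libraries.

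The labelled sort did not match most barcodes. The Cd8 gate (Cd8a and Cd8b1 UMIs summing to at least 2) held 2620 female and 2404 male barcodes, against 793 and 873 in the Cd4 gate (at least 1 Cd4 UMI) and 629 and 836 in the Foxp3 gate (at least 1 UMI of the regulatory T cell factor). The H2-Aa gate (at least 3 UMIs of this class II gene) held 62 and 98 barcodes, and the Krt gate (Krt8 and Krt18 summing to at least 10) held 38 and 27. The gates overlapped: 375 of 629 female and 464 of 836 male Foxp3 barcodes were also in the Cd8 gate. Of the Krt gate, 7 of 38 female and 3 of 27 male barcodes were also in the Cd8 gate. For tests, each barcode was put in 1 class only, in the order Krt, H2-Aa, Cd8 with Foxp3 (set aside), Cd8, Foxp3 and Cd4. Median UMIs per barcode, female then male, were 10457 and 8751.5 in the Cd8 class, 6370 and 6011 in the Foxp3 class, 5218.5 and 5382 in the Cd4 class, 40381.5 and 36788.5 in the H2-Aa class, and 53141.5 and 43236 in the Krt class.

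The classes were described by marker genes, as CPM, a gene's UMIs scaled to the UMI total of the class. Cd3e, a chain of the CD3 complex of T cells, stood at 1141 and 1064 CPM in the Cd8 class, 955 and 983 in the Foxp3 class, and 933 and 784 in the Cd4 class. It also stood at 723 and 672 CPM in the H2-Aa class, with Cd8a at 485 and 496 CPM. The H2-Aa class is therefore described by its gate and not as an antigen-presenting cell type. The 8 macrophage markers summed to 269 and 316 CPM there, against 16.6 and 21.3 CPM in the Cd8 class. Lyz2 gave 285 of these 575 female and 467 of these 1047 male UMIs, with 81 and 154 in 1 barcode each. The 6 dendritic markers summed to 440 and 346 CPM in the H2-Aa class, against 417 and 467 in the Cd8 class. The 5 B cell markers summed to 4.21 and 8.15 CPM, against 3.53 and 5.43. In the Krt class Krt8, a gene of its gate and so no check of it, reached 1938 and 2054 CPM, and Cd3e fell to 67.7 and 33 CPM. Epcam and Cdh1 were at 0 there in both libraries.

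Promoter sequences are shown for a few genes that held a letter match to a response element of interest in this pathway. Sequences are from RefSeq on GRCm38.p6, 5′ to 3′ on the gene's strand. Apart from Psmb8, they end at the transcription start or before an annotated untranslated region. For Psmb8 only the match with 10 bases on each side is shown, which lies within the bounds of the gene in GENCODE M21. Capitals mark matches on either strand to the interferon-stimulated response element (ISRE: GAAA, any 2 bases, GAAA), the gamma-activated site (GAS, TTCNNNGAA) or the antioxidant response element (ARE, TGACNNNGC).
B2m, chr2:122147437-122147685, plus strand: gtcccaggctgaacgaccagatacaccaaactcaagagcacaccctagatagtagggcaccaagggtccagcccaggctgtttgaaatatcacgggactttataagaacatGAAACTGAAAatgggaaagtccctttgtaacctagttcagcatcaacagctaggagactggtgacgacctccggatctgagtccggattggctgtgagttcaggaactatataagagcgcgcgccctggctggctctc
H2-K1, chr17:34000348-34000597, minus strand: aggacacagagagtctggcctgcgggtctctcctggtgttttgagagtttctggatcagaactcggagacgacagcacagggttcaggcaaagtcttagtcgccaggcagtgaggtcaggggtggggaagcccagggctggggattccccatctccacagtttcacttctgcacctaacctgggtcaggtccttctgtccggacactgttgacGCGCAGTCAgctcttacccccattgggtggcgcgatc
Psmb8, 29 bases at chr17:34198088-34198116, plus strand: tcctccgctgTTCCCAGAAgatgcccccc
Psmb5, chr14:54618023-54618245, minus strand: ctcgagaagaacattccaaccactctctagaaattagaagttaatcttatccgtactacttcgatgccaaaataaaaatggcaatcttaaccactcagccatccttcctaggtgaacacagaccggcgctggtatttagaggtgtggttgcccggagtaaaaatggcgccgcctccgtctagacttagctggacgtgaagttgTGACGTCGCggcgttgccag
Psmb6, chr11:70525107-70525356, plus strand: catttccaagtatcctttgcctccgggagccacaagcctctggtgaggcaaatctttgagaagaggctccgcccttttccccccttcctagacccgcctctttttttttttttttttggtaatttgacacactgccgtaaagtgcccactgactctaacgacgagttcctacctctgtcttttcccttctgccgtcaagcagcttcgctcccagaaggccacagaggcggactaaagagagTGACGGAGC

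In the 250 bases before the start, 48 of the 58 genes had a promoter in the table. The ISRE letters matched in 4 of them (B2m, Psmb3, Psmd4 and Psmd9), or 8.33%, against 3.46% of 27025 promoters of all genes. The GAS letters matched in 2 (Psmb8 and Psmg1), or 4.17%, against 8.13% of all promoters. The ARE letters matched in 6 (H2-K1, Psmb5, Psmb6, Psmc6, Psmd12 and Psmd9), or 12.5%, against 11.5%. The ARE matches included both constitutive catalytic genes with a promoter in the table, Psmb5 and Psmb6, and none of the 3 immunoproteasome genes. With the ARE share of the genes near that of all promoters, these sets are too small to compare. Psmb9, Psmb10, Tap1, Tapbp, H2-D1 and Erap1 had a promoter in the table and no match to any of these letters. A match is a description of these letters and not a bound site. A site whose letters depart from them was neither counted nor marked.

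The catalytic subunits separated the Krt class from every T cell class. The immunoproteasome share was taken as the UMIs of Psmb8, Psmb9 and Psmb10 in those of all 6 catalytic genes; it is a ratio of transcripts and not of protein, it is not corrected for capture that differs between the genes, and its exact binomial 95% interval covers counting error only. By gate, the share was 69.0% female and 70.3% male in Cd8, 69.2% and 71.4% in Foxp3, 69.4% and 71.0% in Cd4, 64.5% and 67.2% in H2-Aa, and 41.0% and 38.4% in Krt barcodes. In the disjoint classes it was 69.2% (68.9 to 69.6) and 70.0% (69.6 to 70.5) in Cd8, and 74.7% (73.1 to 76.3) and 74.8% (73.5 to 76.1) in Foxp3. The Cd4 class had 68.9% and 69.1%, the H2-Aa class 69.3% and 70.2%, and the Krt class 41.0% (39.0 to 43.1) and 38.4% (35.8 to 41.0). The Foxp3 class was highest and the Krt class lowest in both libraries, and the intervals of the other 3 classes overlapped within each library.

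**Figure D1:**
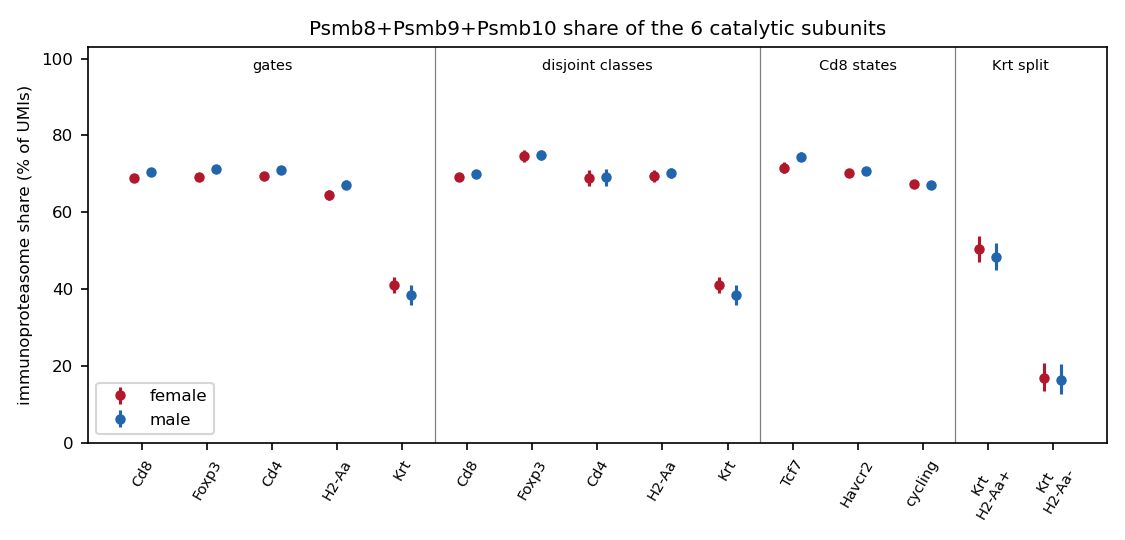
Share of Psmb8, Psmb9 and Psmb10 in the UMIs of the 6 catalytic genes (y axis, percent) by gate, disjoint class, Cd8 state and split of the Krt barcodes (x axis), with exact binomial 95% intervals; red is female and blue is male. T cell sets lie between 67.1% and 74.8%, the whole Krt class at 41.0% and 38.4%, and Krt barcodes without H2-Aa at 16.9% and 16.4%.

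The 3 sites moved unequally in the Krt class. At the beta5 site, which has chymotrypsin-like activity, Psmb8 made up 30.1% female and 22% male of Psmb8 and Psmb5 UMIs, against 76.4% and 77.6% in the Cd8 class. At the beta1 site Psmb9 made up 37.0% and 36.6%, against 55.2% and 55.6%. At the beta2 site, which has trypsin-like activity, Psmb10 made up 60.7% and 60%, against 68.6% and 67.6%. In the Foxp3 class the beta1 share was 64.9% and 66.3%, above the Cd8 class in both libraries. Per barcode with at least 10 UMIs of the 6 genes, the median share was 38.5% female and 29.8% male in the Krt class, and 25 of 34 and 19 of 26 such barcodes lay under 50%. In the Cd8 class the medians were 70.8% and 72.0%, and 58 of 1446 and 28 of 1087 barcodes lay under 50%.

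**Figure D2:**
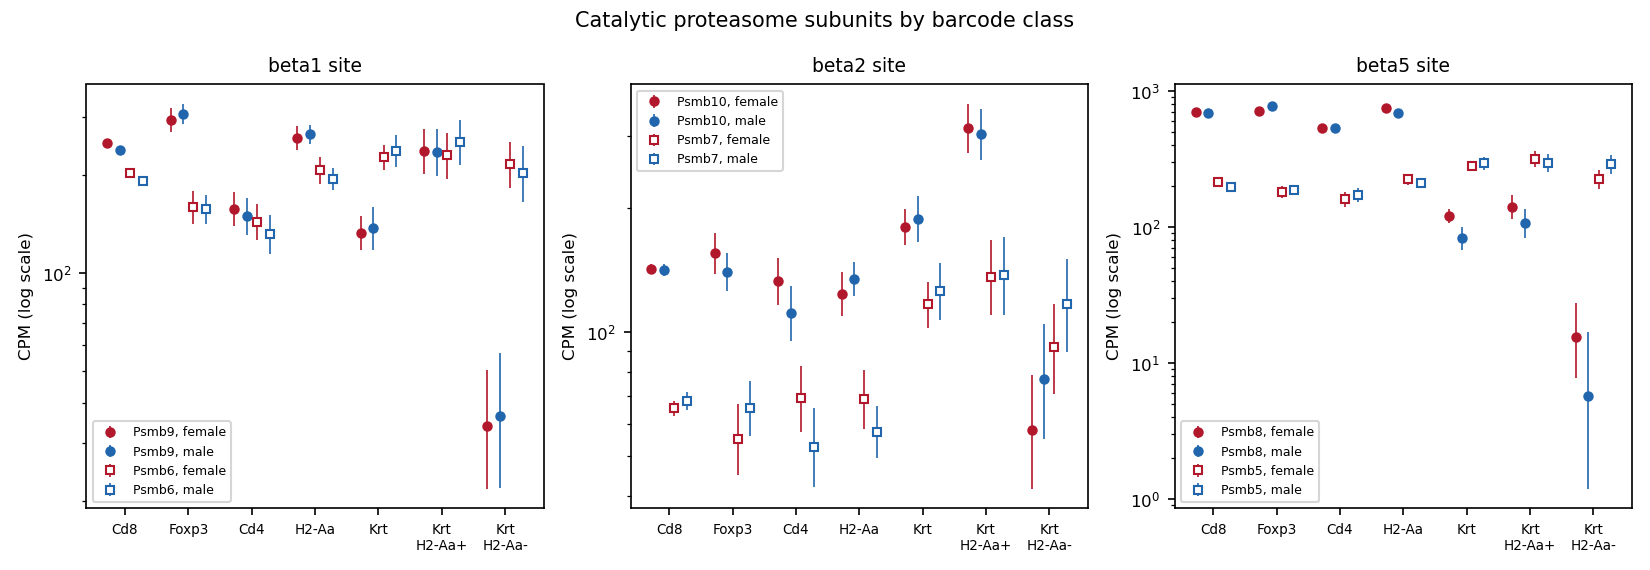
CPM (log axis) of the immunoproteasome subunit (filled circles) and the constitutive subunit (open squares) of each catalytic site, by class and for the Krt barcodes split by H2-Aa, with exact Poisson 95% intervals; red is female and blue is male. Psmb8 stands near 690 CPM in the Cd8 class and at 15.6 and 5.76 CPM in Krt barcodes without H2-Aa.

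Krt barcodes carried less of the class I pathway and more constitutive proteasome than the Cd8 class. Of 55 genes tested, 27 were higher and 10 lower, where 33.7% of all 9387 genes tested were called higher and 35.8% lower. Here and below, called means an adjusted p under 0.05 in edgeR's quasi-likelihood test on UMIs summed per library and class, 2 sums a class. Library was a block, with 1 library a sex. Those p-values therefore measure only how class differences vary between these libraries, with the spread estimated over all classes of the fit. The median log2 difference was 0.20 over the 55 genes and -0.09 over all genes. With barcodes in 1 gate only, which left 18 female and 12 male Krt barcodes, the balance turned to 13 genes higher and 17 lower.

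All 8 class I genes were lower in the Krt class. Nlrc5 was at 14.8 CPM female and 13.4 male, against 73.9 and 72.4 in the Cd8 class, a log2 difference of -2.16 ± 0.16 (SE, adjusted p = 5.98e-08). The transporter subunit Tap2 was at 47.7 and 45.6 CPM against 170 and 169, a difference of -1.64 ± 0.13. Its partner Tap1 was at 75.8 and 84.9 CPM against 213 and 190, a difference of -1.13 ± 0.12. The heavy chains H2-K1 and H2-D1 differed by -0.83 and -0.70, the light chain B2m by -0.51, the peptidase Erap1 by -0.77 and Tapbp by -0.31. No Krt value overlapped a Cd8 value for any of these 8 genes; 53.6% of all genes likewise had both Krt values below both Cd8 values.

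Among the immunoproteasome genes, Psmb8 and Psmb9 were lower in the Krt class and Psmb10 was higher. Psmb8 stood at 121 and 82.6 CPM against 694 and 683, a log2 difference of -2.53 ± 0.13 (adjusted p = 2.67e-09). Psmb9 stood at 133 and 137 CPM against 250 and 239, a difference of -0.66 ± 0.10. Psmb10 stood at 180 and 189 CPM against 143 and 142, a difference of 0.58 ± 0.11. Psmb10 turned to -0.94 (adjusted p = 0.000521) when the Krt class was limited to the 18 female and 12 male barcodes in no other gate. Psme2, a subunit of the PA28 activator, turned from 0.50 to -0.31 with that limit, where it was no longer called (adjusted p = 0.167).

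The constitutive subunits all rose in the Krt class. Psmb7 stood at 117 and 126 CPM against 65.4 and 68.0, a log2 difference of 1.06 ± 0.13. Psmb5 differed by 0.68 and Psmb6 by 0.44. With barcodes in 1 gate only Psmb6 was at 0.25 and no longer called (adjusted p = 0.215), and within 3000 to 20000 UMIs none of the 3 was called. Of the 11 other genes of the core particle, 8 were higher and 0 lower, led by the alpha subunit Psma7 at 494 and 519 CPM against 262 and 245, a difference of 1.20 ± 0.09. Of 7 assembly chaperones, 5 were higher and 0 lower: Psmg1 by 1.94, Psmg4 by 1.79, Psmg3 by 1.26, Psmd5 by 0.73 and Psmd10 by 0.59. Of the 19S cap, 4 of 6 ATPases and 5 of 11 other subunits were higher, among them Psmd7 by 1.24 and Psmd1 by 0.95.

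Around the pathway, the class Ib genes followed the class I genes in the Krt class. All 7 tested of 11 class Ib genes were lower, with H2-Q6 at 19.6 and 16.5 CPM against 328 and 321, a log2 difference of -3.94 ± 0.14. H2-Q7 differed by -2.65, and the lipid-presenting gene Cd1d1 was lower, with 2 UMIs in the female Krt sum and 0 in the male one, which allows up to 3 UMIs by counting error. The tapasin relative Tapbpl differed by -1.25 and the chaperone calnexin (Canx) by 1.16. Of 14 regulators tested, 2 were higher and 8 lower. Nfe2l1, a factor known to drive proteasome genes, was higher by 1.54, while Irf8 and Stat3 differed by -3.01 and -2.80. H2-K1, H2-D1 and the H2-Q genes are close copies, so how their reads were divided among them is uncertain. The Krt barcodes were also deeper than the Cd8 barcodes, and within 3000 to 20000 UMIs only 6 female and 3 male Krt barcodes were left, with 3 of the genes higher and 15 lower.

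The Krt barcodes were further split by H2-Aa. Of the gene groups tested, the immunoproteasome genes had the largest median log2 difference across the split, 2.64. This split was chosen after the values were seen, and it used only Krt barcodes outside the Cd8, Foxp3 and Cd4 gates. It put 11 female and 12 male barcodes with at least 3 H2-Aa UMIs against 18 and 12 without. T cell marker UMIs summed to 1 and 0 in the barcodes with H2-Aa and to 2 and 4 in those without. The immunoproteasome share was 50.4% female and 48.4% male with H2-Aa, and 16.9% and 16.4% without. At the beta5 site it was 30.9% and 26.6% against 6.51% and 1.95%. Per barcode, the median share of all 3 sites was 44.8% and 48.6% with H2-Aa, and 17.7% and 13.4% without. Single barcodes overlapped, from 17.6% to 73.1% and 25% to 75.5% with, and 0% to 100% and 4.35% to 57.1% without. Median UMIs were 53236 and 49268 with, and 36155 and 43043.5 without. Epithelial markers summed to 4605 and 5349 CPM with, and 3107 and 2845 without. Nearly all of these sums was Krt8 and Krt18, the genes that set the gate. The part of these differences was not tested.

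Of 55 genes tested across this split, 12 were higher with H2-Aa and 0 lower, where 0.446% of 9642 genes were called higher and 0.633% lower; DESeq2 called 14 and 0. Psmb8 stood at 141 and 107 CPM with H2-Aa and at 15.6 and 5.76 CPM without, a log2 difference of 3.35 ± 0.30 (adjusted p = 1.47e-05). Psmb9 stood at 237 and 234 CPM against 33.9 and 36.5, a difference of 2.64 ± 0.18 (adjusted p = 9.66e-07). Psmb10 stood at 313 and 303 CPM against 58.0 and 76.8, a difference of 2.11 ± 0.18. The constitutive Psmb5, Psmb6 and Psmb7 differed by 0.16, 0.10 and 0.31 and were not called.

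The class I and activator genes moved with the immunoproteasome across the split. Tap2 was higher by 2.42, Tap1 by 1.99, Tapbp by 1.33, H2-K1 by 1.07 and H2-D1 by 0.81. The PA28 subunits Psme1 and Psme2 were higher by 1.02 and 1.15. Nlrc5 was not called and stood at 18.0 and 9.62 CPM with H2-Aa against 14.1 and 17.3 without. The oxidative stress factor Nfe2l2 differed by -1.40. The proteasome maturation protein Pomp was higher by 0.65, and class Ib genes were higher in 4 of 7 tested. The H2-Aa level chose the groups and is no result.

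**Figure D3:**
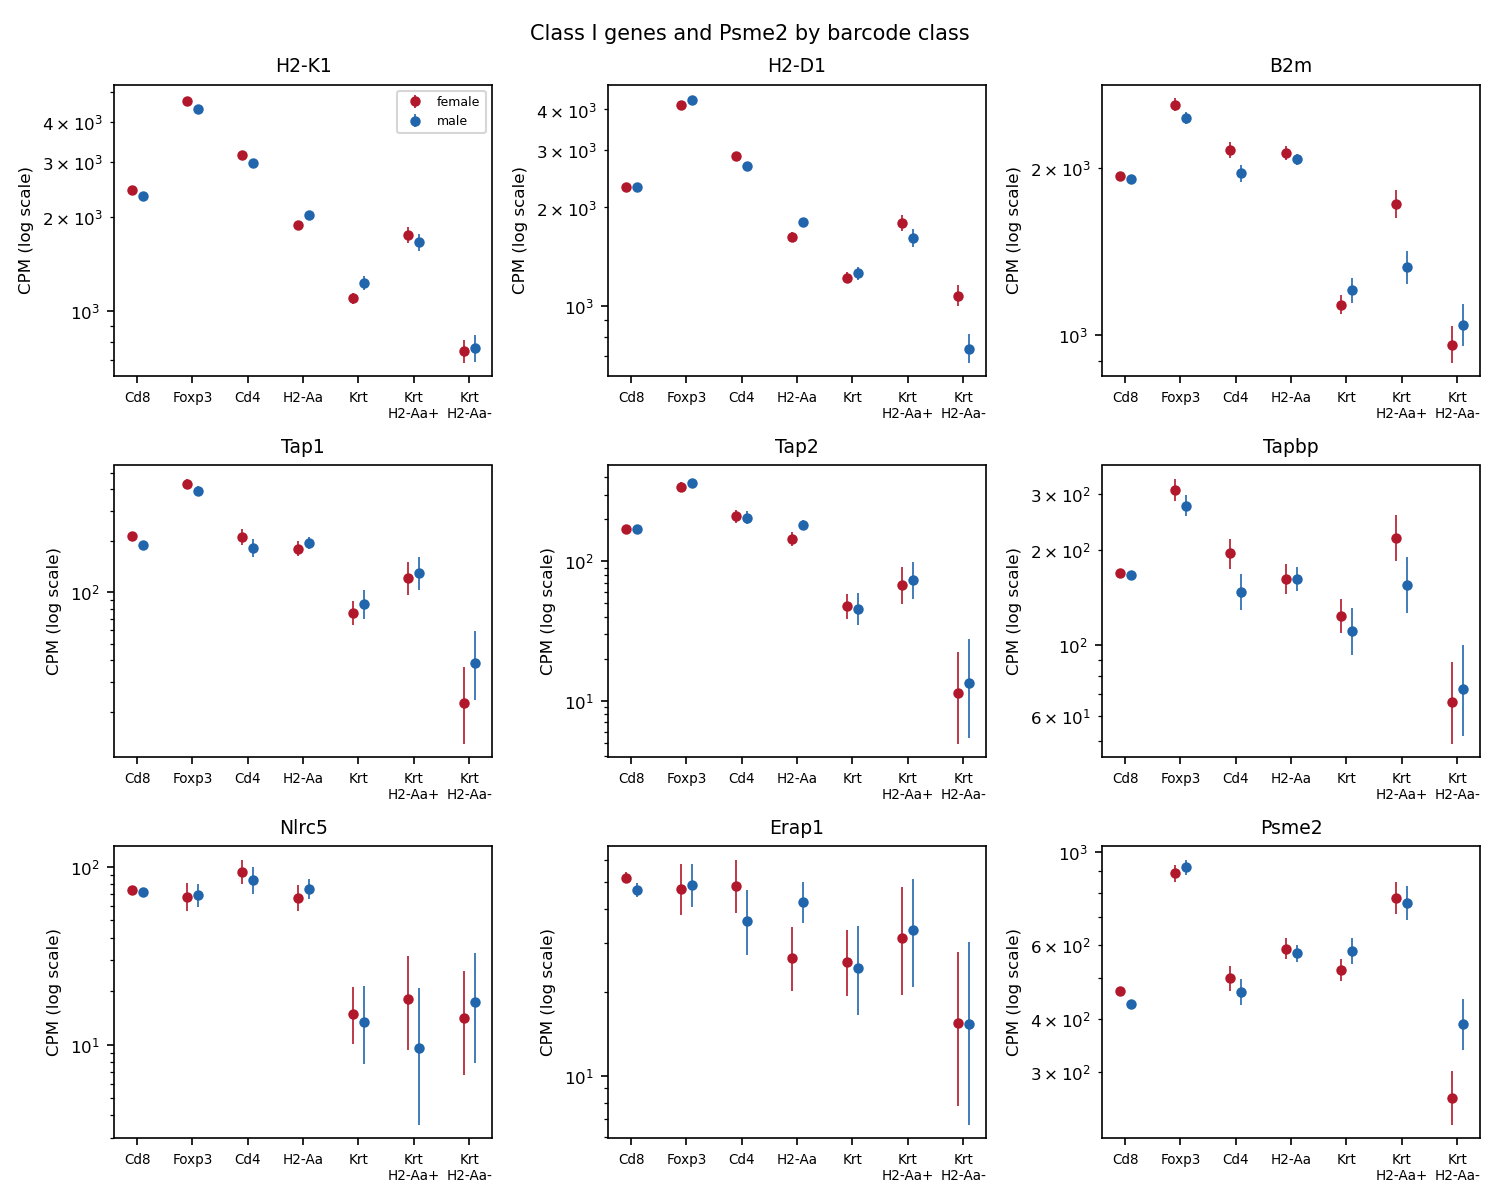
CPM (log axis) of the 8 class I genes and Psme2 by class and for the Krt barcodes split by H2-Aa, with exact Poisson 95% intervals; red is female and blue is male. H2-K1, H2-D1, Tap1, Tap2, Tapbp and Psme2 are highest in the Foxp3 class in both libraries, and Nlrc5 is low in every Krt group.

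The Foxp3 class, of 248 female and 363 male barcodes, carried more RNA of 6 of the 8 class I genes than the Cd8 class. H2-K1 stood at 4695 CPM female and 4411 male, against 2445 and 2331, a log2 difference of 0.78 ± 0.08 (adjusted p = 7.84e-06). H2-D1 stood at 4127 and 4264 CPM against 2307 and 2312, a difference of 0.71 ± 0.08. Tap1 stood at 431 and 391 CPM against 213 and 190, a difference of 0.88 ± 0.10, and Tap2 differed by 0.91, Tapbp by 0.65 and B2m by 0.25. Psme2 stood at 889 and 920 CPM against 466 and 435, a difference of 0.86 ± 0.09. Both Foxp3 values lay above both Cd8 values for these 7 genes, as for 44.6% of all genes. The other 2 class I genes were not called: Nlrc5 stood at 67.9 and 69.4 CPM against 73.9 and 72.4, a difference of -0.24, and Erap1 differed by -0.19. Between the whole gates, which share barcodes, the gap was smaller. H2-K1 stood at 2713 and 2600 CPM in the Foxp3 gate against 2439 and 2331 in the Cd8 gate. Tap1 stood at 246 and 237 CPM against 215 and 199.

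In all, 7 genes were called higher and 10 lower, where 19.8% of all genes were called higher and 20.6% lower. The 10 lower genes included Psmb6 (-0.47), Psmb5 (-0.31) and 4 other core subunits, but the lower calls depended on the scaling. The TMM factors were 1.11 and 1.11 for the Foxp3 class, 1.004 and 0.992 for the Cd8 class, and 0.873 and 0.863 for the Krt class. With scaling by total UMIs, 11 genes were higher and 1 lower in the Foxp3 class. Psmb8, Psmb9 and Psmb10 were not called, with log2 differences of -0.04, 0.15 and -0.10, and the signs of Psmb8 and Psmb10 turned with total scaling.

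Other genes of the pathway were higher in the Foxp3 class as well. Class Ib genes were higher in 6 of 7 tested, among them H2-T23 by 0.67, H2-Q7 by 0.68 and Cd1d1 by 1.05. Tapbpl was higher by 0.98 and the peptidase Tpp2 by 0.69. Irf1, an interferon-induced activator of class I genes, was higher by 1.22 and Irf8 differed by -1.88. The Foxp3 class was shallower than the Cd8 class, and 305 UMIs of the macrophage gene Lyz2 in its female sum came from 1 barcode; their part in these results was not tested.

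Against the Cd4 class, which is the closer T cell comparison in depth, the Foxp3 class was higher in 5 of 8 class I and 2 of 3 immunoproteasome genes. Of 55 genes, 12 were higher and 1 lower, where 11.5% of all genes were called higher and 10.7% lower. Tap1 stood at 431 and 391 CPM against 211 and 181, a log2 difference of 0.99 ± 0.11 (adjusted p = 4.32e-05). Psmb9 stood at 294 and 308 CPM against 157 and 149, a difference of 0.90 ± 0.10, and Psmb8 at 716 and 769 CPM against 535 and 535, a difference of 0.40 ± 0.12. Psme2 was higher by 0.83, Tapbp by 0.70, Tap2 by 0.69, H2-D1 by 0.52 and H2-K1 by 0.50. Nlrc5 was the gene that was lower, at 67.9 and 69.4 CPM against 93.9 and 84.3, a difference of -0.45 ± 0.12. Psme2b was higher by 1.81, but it is a near copy of Psme2 and its reads may be divided between them. Psmb10, Psmb5, Psmb6 and Psmb7 were not called (0.19, 0.08, 0.12 and -0.08 for the log2 differences), nor were B2m and Erap1. Tapbpl was higher by 1.48. With strict classes the Foxp3 and Cd4 barcodes were as many as before, while the Cd8, H2-Aa and Krt classes that share the fit were cut to barcodes in 1 gate only, and 6 of the genes were then higher and 0 lower.

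The Cd4 class held less proteasome RNA than the Cd8 class. Of 55 genes, 1 was higher and 17 lower, where 14.4% of all genes were called higher and 15.4% lower, and the median log2 difference was -0.21 against -0.02 over all genes. Psmb9 stood at 157 and 149 CPM against 250 and 239, a difference of -0.75 ± 0.10 (adjusted p = 0.000116). Psmb8 differed by -0.44, Psmb6 by -0.59 and Psmb5 by -0.39, so both catalytic sets were lower, and the share above was close in these classes. Of 11 other core subunits, 7 were lower. H2-K1 was the higher gene, at 3144 and 2974 CPM against 2445 and 2331, a difference of 0.28 ± 0.08. Of the regulators, Irf8 differed by -2.76, while Nfe2l2 and the protease Ddi2, which activates Nfe2l1, were higher by 0.85 and 0.90. The Cd4 barcodes were shallower than the Cd8 barcodes. The 5 neutrophil markers summed to 144 CPM in the male Cd4 class and 0 in the female one, against 0.15 and 0.21 in the female and male Cd8 classes; 106 S100a8 UMIs and 114 S100a9 UMIs each came from 1 male barcode, and their part in these results was not tested. Within 3000 to 20000 UMIs, 2 genes were lower and 0 higher, and DESeq2 called 11 lower.

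Few genes differed between the H2-Aa and Cd8 classes. Of 55 genes, 1 was higher and 4 lower, where 9.31% of all genes were called higher and 5% lower. Psme2 was higher by 0.38, and H2-D1, Psmd4, Psmd3 and H2-K1 differed by -0.42, -0.41, -0.39 and -0.28. None of the 6 catalytic genes was called; Psmb8 stood at 747 and 690 CPM against 694 and 683. Of the H2-Aa gate, 41 of 62 female and 73 of 98 male barcodes were also in the Cd8 gate, and no doublet caller was run. Only 4 female and 4 male barcodes were in the H2-Aa gate and no other. Their immunoproteasome share was 75% and 45.3%, and Psmb8, Psmb9 and Psme2 turned to log2 differences of -1.06, -1.81 and -0.81 with that limit. Psmb8 and Psmb9 were called lower there (adjusted p = 0.0448 and 0.0256), while Psme2 was not called (adjusted p = 0.196). No gene was then called higher, nor was any within 3000 to 20000 UMIs, where Psme2 was at 0.27 (adjusted p = 0.479).

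**Figure D4:**
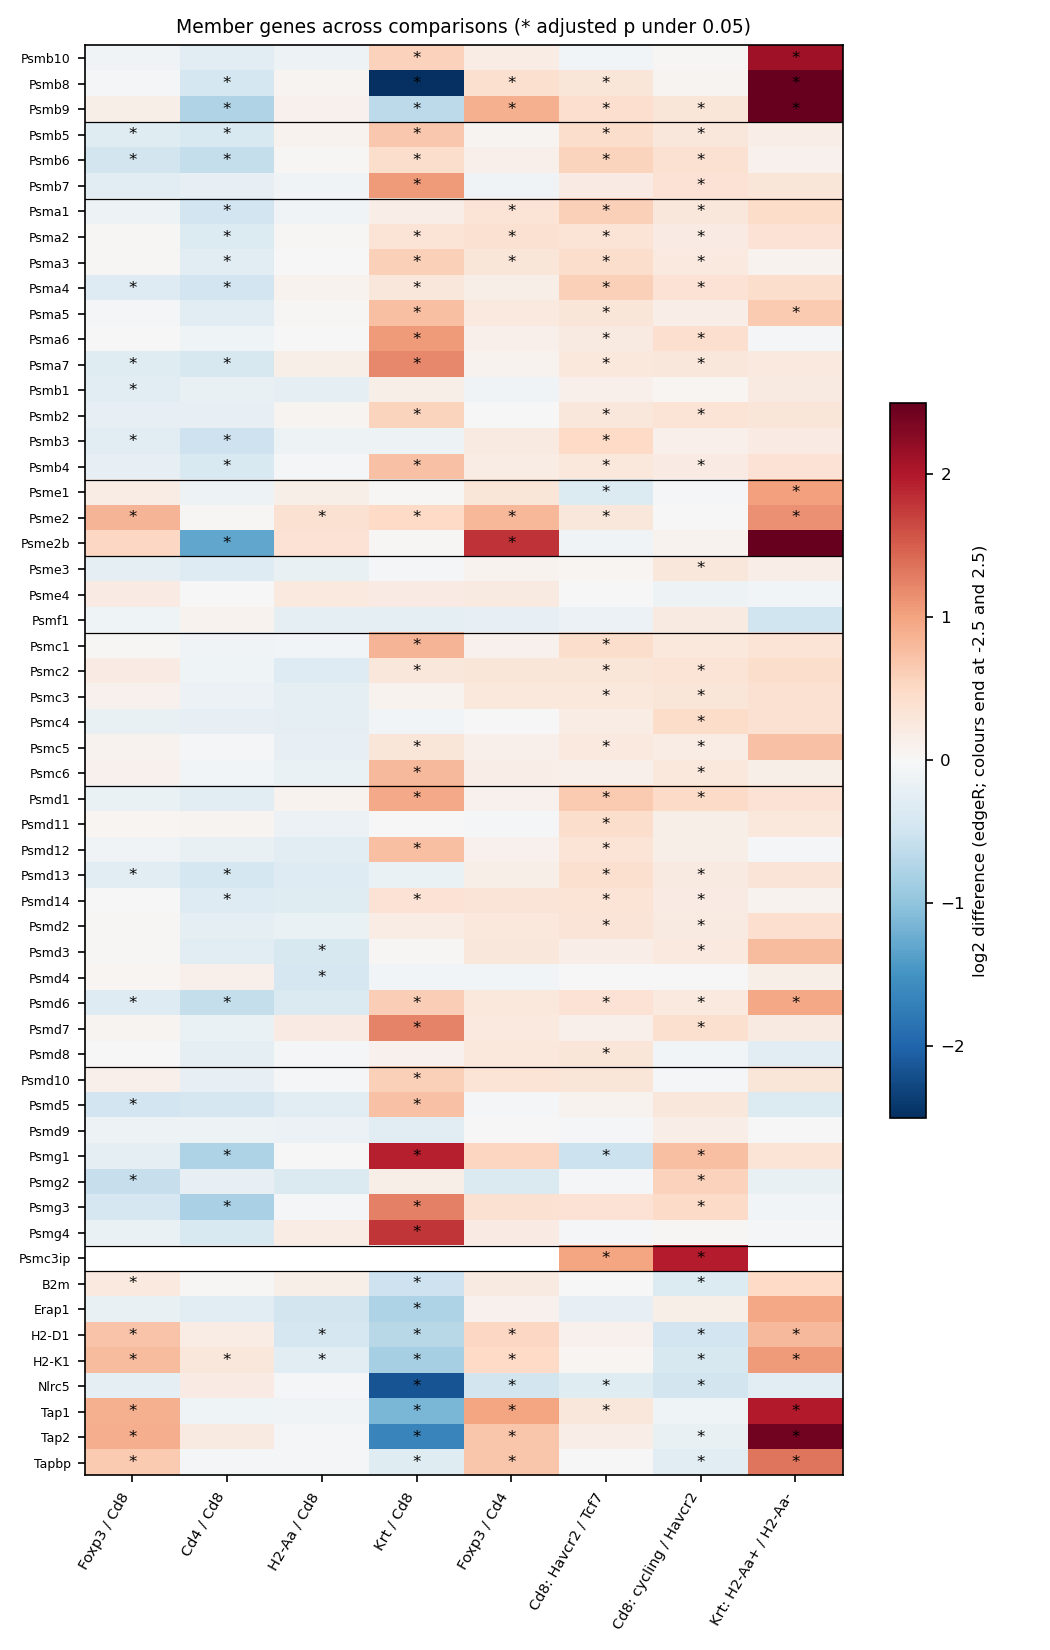
Log2 difference by edgeR (colour) of each tested gene (y axis, grouped by role) in the 8 comparisons (x axis), with an asterisk at an adjusted p under 0.05; white cells were not tested. The Krt columns hold the darkest cells, Psmb8 at -2.53 against the Cd8 class and 3.35 across the H2-Aa split.

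Within the Cd8 class, barcodes with the exhaustion receptor Havcr2 and no Tcf7 held more proteasome RNA than barcodes with Tcf7, a factor of stem-like T cells, and no Havcr2. The Havcr2 state held 728 female and 528 male barcodes and the Tcf7 state 426 and 554. Of 56 genes, 29 were higher and 3 lower, where 21.8% of all genes were called higher and 21.9% lower; DESeq2 called 15 and 1. The median log2 difference was 0.26, against 0.00 over all genes. Psmb6 stood at 193 and 192 CPM against 128 and 119, a difference of 0.56 ± 0.06 (adjusted p = 6.95e-05). Psmb5 was higher by 0.44, Psmb9 by 0.41 and Psmb8 by 0.30. Of 11 other core subunits 10 were higher, and of the 19S cap 4 of 6 ATPases and 8 of 11 other subunits.

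The class I genes took less part in that difference. Tap1 was higher by 0.28 and Nlrc5 lower, at 82.6 and 74.2 CPM against 96.9 and 86.7, a log2 difference of -0.31 ± 0.08. The other 6 class I genes were not called. The PA28 subunits went apart, with Psme2 at 0.29 and Psme1 at -0.33. Irf8 was higher by 2.45, and Irf1 and Nfe2l2 differed by -0.99 and -1.36. The immunoproteasome share was 70.2% female and 70.6% male in the Havcr2 state, and 71.6% and 74.4% in the Tcf7 state. Median UMIs were 11072.5 and 10002 in the Havcr2 state and 7056 and 7263 in the Tcf7 state, and within 3000 to 20000 UMIs 26 genes were higher and 2 lower.

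Cycling Cd8 barcodes, with at least 2 UMIs of Mki67 and Top2a, had more proteasome and less class I RNA than the Havcr2 state. Of 56 genes, 29 were higher and 6 lower, where 21.3% of all genes were called higher and 17.8% lower. Psmb6 stood at 247 and 253 CPM against 193 and 192, a log2 difference of 0.37 ± 0.06 (adjusted p = 0.000566), and Psmb7 was higher by 0.36, Psmb5 by 0.28 and Psmb9 by 0.30. The 6 lower genes were all class I genes: H2-D1 at 1898 and 1963 CPM against 2684 and 2681 (-0.48 ± 0.06), then Nlrc5 (-0.46), H2-K1 (-0.40), B2m (-0.35), Tapbp (-0.28) and Tap2 (-0.18). Psmc3ip, the recombination gene, rose most, from 4.15 and 3.51 to 15.1 and 15.3 CPM. The immunoproteasome share was 67.3% and 67.1%. Median UMIs were 26232 and 23381 in the cycling state, and within 3000 to 20000 UMIs 1 gene was higher and 0 lower, from 158 female and 134 male cycling barcodes. DESeq2 called 9 higher and 5 lower.

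The sexes were compared as the ratio of 1 female to 1 male library, with no test and with Poisson intervals that cover counting error only. The median log2 ratio, female over male, was 0.09 in the Cd8 class, 0.02 in Foxp3, 0.09 in Cd4, 0.06 in H2-Aa and 0.01 in Krt. A fold of 1.5 was passed by 0 of 55 genes in the Cd8 class, where 1.78% of all genes passed it in either direction. It was passed by 1 of 55 in Foxp3 (all genes 10.2%), 2 of 54 in Cd4 (14.8%), 1 of 55 in H2-Aa (9.37%) and 3 of 56 in Krt (16.5%). The genes past it with an interval excluding 0 were Psmg2 in Foxp3 (0.68, interval 0.07 to 1.29), Psmf1 in Cd4 (0.65, 0.09 to 1.22), Erap1 in H2-Aa (-0.67, -1.14 to -0.21), and Psmd11 (0.59, 0.23 to 0.96) and Psmc3ip (-1.34, -2.47 to -0.26) in Krt.

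No catalytic subunit passed the fold in any class. Psmb8 came nearest in the Krt class, at 121 CPM female and 82.6 male, a log2 ratio of 0.55 (0.21 to 0.89) from 253 and 105 UMIs. Of these, 52 female and 25 male UMIs came from 1 barcode each. In Krt barcodes outside the Cd8, Foxp3 and Cd4 gates, Psmb8 UMIs were 94 female and 67 male with H2-Aa, and 11 and 3 without. The remaining Psmb8 UMIs came from Krt barcodes that were also in a T cell gate, and their part in the ratio was not tested. In the Cd8 class, whose summed UMIs were the most, Psmb8 was at 694 and 683 CPM (0.02, -0.01 to 0.05), Psmb9 at 250 and 239 (0.07, 0.02 to 0.12), Tap1 at 213 and 190 (0.17, 0.11 to 0.22) and H2-K1 at 2445 and 2331 (0.07, 0.05 to 0.08). Sex and library cannot be told apart in these data.

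**Figure D5:**
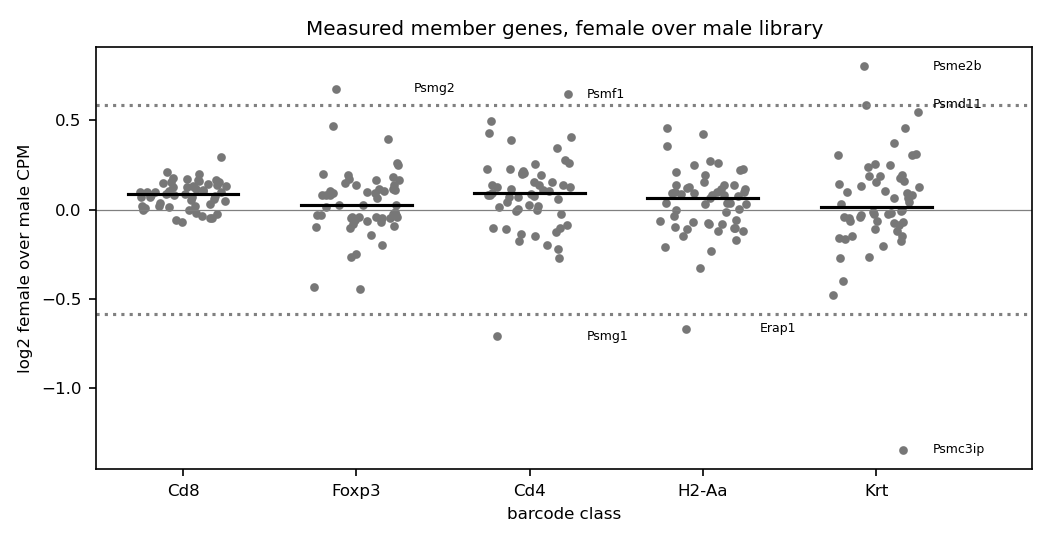
Log2 ratio of female to male CPM (y axis) of each measured gene (points) by class (x axis), with the median as a bar and dotted lines at 1.5-fold; genes past a line are named. Medians lie between 0.01 and 0.09, and the widest spread is in the Krt class.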

How the data were processed

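UMI counts per gene and barcode were used as deposited; the authors counted against GRCm38, per the submitters' processing notes, which also name Seurat 5, and the file headers give Cell Ranger 7.0.1. Use of strand in counting is not given in the sources used here: 12 of the genes overlap a gene on the same strand and 25 one on the other strand in GENCODE M21 (Psmb9 overlaps Tap1), and reads of such pairs may be mixed. Libraries held 55880364 (female) and 50946624 (male) UMIs.

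Barcodes were grouped by gate UMIs, with no doublet caller; those in both the Cd8 and Foxp3 gates (353 female, 414 male) were set aside. Counts were summed per library and class and fitted with edgeR 4.0.16 (R 4.3.3; TMM, quasi-likelihood, library as a block, Benjamini-Hochberg over all genes with at least 10 CPM in 2 sums and 20 UMIs in all). The fits were also run on simulated counts that gave every gene and class the same dispersion. Sums of few and of many barcodes may differ in spread, so no conclusion is drawn from that run. Sexes were compared by CPM ratios of genes with at least 10 CPM in 1 library and 20 UMIs. DESeq2 1.42.0, other scalings, filters, depths and gates were alternatives. Because 5′ capture differs between genes, levels were not compared between genes outside the immunoproteasome share, which is uncorrected and serves to compare classes.

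The named genes were the 6 catalytic, 2 PA28 and 8 class I genes, with up to 6 further called genes of largest difference and up to 3 from each pathway list. A regulator on the pathway lists is not reported here. Values of named genes that were not called are given for the catalytic genes and where levels help. The genes and lists were chosen with earlier results of these data known. Proteins were not analysed here.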

Additional observations from a re-analysis of the deposited data

Results flagged for a closer look

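Of the genes described, 5 had female over male log2 ratios of opposite sign in different classes, each with an interval excluding 0; with 1 library a sex, the differences between classes were not tested. Erap1 was at 0.15 in the Cd8 class and -0.67 in the H2-Aa class. H2-D1 was at 0.10 in Cd4, -0.047 in Foxp3 and -0.15 in H2-Aa. H2-K1 was at 0.069 in Cd8, 0.090 in Foxp3 and 0.080 in Cd4, but at -0.10 in H2-Aa and -0.16 in Krt. Psmb8 was at 0.12 in H2-Aa and 0.55 in Krt, and at -0.10 in Foxp3. Psme2 was at 0.10 in Cd8 and -0.15 in Krt. The intervals cover counting error only, and Erap1 turned to 2.40 with strict H2-Aa barcodes, 4 in each library.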

How the results depend on the processing

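The class comparisons were paired by library, which the fits carry as a replicate block; without it the Foxp3 against Cd8 lower count was 6 and the H2-Aa lower count 2. For the sexes, no paired analysis was possible because each has 1 library. Of 1355 values of 130 gene differences under alternatives, 1184 kept direction and side of the threshold, 136 lost the call, 6 gained it and 29 changed sign. These cover called genes and the 6 catalytic genes, a choice made after the alternatives were run. Of the other 36 named gene differences, not called, 17 of 309 values changed sign and 17 were called; 2 did both, Psme1 in the Krt class, from 0.02 to -0.69 with strict classes and -0.99 in the depth window. The cause of the changes was not tested.

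Counts, higher then lower. In the window of 3000 to 20000 UMIs: Foxp3 against Cd8 lower 1, Cd4 against Cd8 0 and 2, H2-Aa 0 and 1, Krt higher 3, cycling 1 and 0. With strict classes (barcodes in 1 gate only, Cd4 allowed with Foxp3): Foxp3 lower 1, Cd4 0 and 9, H2-Aa higher 0, Krt 13 and 17, Foxp3 against Cd4 6 and 0. With total UMI scaling: Foxp3 11 and 1, Cd4 higher 2. With DESeq2: Foxp3 lower 4, Cd4 2 and 11, H2-Aa lower 2, Foxp3 against Cd4 lower 0, Havcr2 15 and 1, cycling higher 9. With no filter on low counts: Cd4 higher 0, H2-Aa lower 9. With doubled gates: Foxp3 against Cd4 lower 0.

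The immunoproteasome share, female then male, was 71.7% and 72.7% in the Cd8 class, 73.4% and 62.7% in H2-Aa and 33.3% and 42.9% in Krt within the depth window, which left 6 and 3 Krt barcodes. With strict classes it was 75% and 45.3% in H2-Aa, from 4 barcodes in each library, and 16.9% and 16.4% in Krt. As a mean per barcode it was 70.7% and 71.9% in Cd8 and 35.5% and 34.0% in Krt. In the ratio of the sexes, the number of genes past 1.5-fold, higher then lower, was 7 and 2 in H2-Aa, 1 and 4 in Krt and 0 higher in Cd4 within the depth window, and 3 higher in H2-Aa and 1 and 2 in Krt with strict classes. Under the other alternatives it was between 0 and 3. Erap1 in H2-Aa turned to 2.40 with strict classes.

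Signs changed as follows, as log2 differences. In Foxp3 against Cd8, Psmb8 went to 0.039 in the depth window and 0.11 with total scaling, and Psmb10 to 0.053 with total scaling. In H2-Aa against Cd8, the depth window gave Psmb5 -0.49, Psmb7 0.40, Psmb8 -0.24 and Psmb9 -0.048. Strict classes gave Psmb10 0.21, Psmb5 -1.35, Psmb8 -1.06, Psmb9 -1.81 and Psme2 -0.81. Psmb6 went to -0.053 with doubled gates and -0.026 with no filter. In Krt against Cd8, the depth window gave Psmb10 -1.19, Psmb6 -0.17 and Psme2 -0.24, and strict classes Psmb10 -0.94 and Psme2 -0.31. Total scaling gave Psmb10 0.0061 between Havcr2 and Tcf7 states, and the depth window gave Psmb8 -0.044 and Psmg1 -0.20 in cycling barcodes. With 1 library at a time, scaled by total UMIs, Psmb10 ranged from -0.018 to 0.12 and Psmb8 from 0.045 to 0.17 in Foxp3 against Cd8. Psmb7 ranged from -0.37 to 0.081 in Cd4 against Cd8, from -0.25 to 0.072 in H2-Aa against Cd8 and from -0.33 to 0.31 in Foxp3 against Cd4. Psmb10 ranged from -0.027 to 0.045 between Havcr2 and Tcf7 states.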
